A study of Homo sapiens with 12 samples.

Results

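The 50 genes described here encode the machinery that makes ribosomes: subunits and initiation factors of RNA polymerase I, the core proteins of the box C/D and box H/ACA small nucleolar ribonucleoproteins, abundant nucleolar proteins, and assembly factors of the small and large ribosomal subunits. They were taken by name from the expression tables, and all 50 were found among the 25369 rows of each table. RNA was sequenced from 2 human diffuse large B cell lymphoma lines, OCI-Ly7 (germinal centre B cell-like, GCB) and TMD8 (activated B cell-like, ABC). Each line expressed a doxycycline-inducible single guide RNA against PRMT5, an enzyme that places symmetric dimethyl marks on arginines of histones, splicing proteins and other substrates. OCI-Ly7 and TMD8 cells were given doxycycline at 20 ng/ml for 0, 3 or 6 days, with 2 libraries for each day and line, 12 in all. The day 0 cells carried the same guide construct without doxycycline. Libraries of a control guide were not analysed here, so the guide, doxycycline and days in culture cannot be told apart. The sources used here do not say whether the cells were 1 clone or a pool, or whether the 2 libraries of a group came from separate cultures, so the p-values measure the spread between these libraries, which may be technical.

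In the nucleolus, RNA polymerase I transcribes the ribosomal DNA repeats into a long precursor, the 45S pre-ribosomal RNA, after UBTF and the selectivity factor SL1 have bound the promoter and RRN3 has recruited the polymerase. Box C/D particles guide ribose methylation of that precursor and box H/ACA particles guide its pseudouridylation, while assembly factors fold, cut and export the small and large subunit particles. Growing B lymphoma cells make many ribosomes, and many of these genes are known targets of the transcription factor MYC, which binds the sequence CACGTG (the E-box).

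RefSeq promoter windows of 300 bases, from 250 before to 50 after the annotated start, matched 41 of the 50 members; the others were NOP58, NHP2L1, NOLC1, POLR1E, RRP12, BOP1, RRP1B, RRS1 and DDX18. Both strands were searched for CACGTG and for CCGGAAGT, a sequence bound by ETS family factors. The E-box was found in 13 of 41 members (31.7%), against 7.43% of the 27305 gene promoters in the same table and 11.2% of the 7727 whose gene had a mean of at least 1 FPKM in both lines. In 12 of those 13 members an E-box began within 50 bases of the start, against 38.6% of all promoters with an E-box. CCGGAAGT was found in 7 of 41 members (17.1%), against 4.44% of all promoters and 11.1% of those of expressed genes. Windows of 5 genes that fell far in OCI-Ly7 and differed between the lines are shown, 3 with an E-box (MRTO4, PNO1 and WDR43) and 2 without (DDX21 and TSR1), and that of POLR1C because it moved in opposite directions in the lines. They are given 5′ to 3′ in the direction of transcription from GRCh38.p14, on the minus strand for TSR1 and on the plus strand for the others, with either motif, or its reverse complement, in capitals. In none of the 41 windows did the motifs overlap each other.
MRTO4, chr1:19251555-19251854: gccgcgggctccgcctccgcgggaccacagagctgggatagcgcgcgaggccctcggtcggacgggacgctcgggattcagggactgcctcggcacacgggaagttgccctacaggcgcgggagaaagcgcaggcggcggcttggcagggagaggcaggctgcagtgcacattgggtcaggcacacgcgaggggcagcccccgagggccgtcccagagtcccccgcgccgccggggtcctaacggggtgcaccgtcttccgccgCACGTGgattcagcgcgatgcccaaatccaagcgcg
PNO1, chr2:68157638-68157937: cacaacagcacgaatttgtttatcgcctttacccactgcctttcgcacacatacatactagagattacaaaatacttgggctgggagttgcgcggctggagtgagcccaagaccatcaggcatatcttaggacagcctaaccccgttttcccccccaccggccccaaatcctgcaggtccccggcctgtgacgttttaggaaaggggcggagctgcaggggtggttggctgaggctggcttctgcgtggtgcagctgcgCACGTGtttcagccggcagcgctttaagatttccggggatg
WDR43, chr2:28894417-28894716: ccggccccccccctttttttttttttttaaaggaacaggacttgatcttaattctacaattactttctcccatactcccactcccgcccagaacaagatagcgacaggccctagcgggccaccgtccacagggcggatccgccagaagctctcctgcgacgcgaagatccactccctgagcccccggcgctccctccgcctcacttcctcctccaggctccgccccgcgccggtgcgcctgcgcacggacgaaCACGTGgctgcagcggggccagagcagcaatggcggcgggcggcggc
DDX21, chr10:68955920-68956219: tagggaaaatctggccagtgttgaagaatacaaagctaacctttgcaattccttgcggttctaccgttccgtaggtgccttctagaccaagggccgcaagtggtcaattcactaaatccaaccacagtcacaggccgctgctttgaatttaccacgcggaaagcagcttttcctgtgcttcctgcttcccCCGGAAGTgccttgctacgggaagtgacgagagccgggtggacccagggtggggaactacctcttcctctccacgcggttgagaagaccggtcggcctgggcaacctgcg
TSR1, chr17:2336408-2336707: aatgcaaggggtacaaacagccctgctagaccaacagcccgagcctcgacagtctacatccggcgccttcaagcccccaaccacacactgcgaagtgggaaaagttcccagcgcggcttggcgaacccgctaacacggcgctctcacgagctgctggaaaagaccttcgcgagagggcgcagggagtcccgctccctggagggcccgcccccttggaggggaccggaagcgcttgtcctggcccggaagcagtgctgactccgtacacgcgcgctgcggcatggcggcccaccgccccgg
POLR1C, chr6:43516839-43517138: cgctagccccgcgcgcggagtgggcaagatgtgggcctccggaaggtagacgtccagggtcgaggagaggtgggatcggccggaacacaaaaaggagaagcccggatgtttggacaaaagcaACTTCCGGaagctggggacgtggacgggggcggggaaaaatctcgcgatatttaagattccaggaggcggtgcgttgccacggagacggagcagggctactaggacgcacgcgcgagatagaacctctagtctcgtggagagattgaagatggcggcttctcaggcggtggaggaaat
The capitals begin 14 bases after the start in MRTO4, 9 after it in PNO1 and 3 after it in WDR43, and all of these are E-boxes. DDX21 carries CCGGAAGT, TSR1 neither sequence, and POLR1C CCGGAAGT on the opposite strand.

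PRMT5, the targeted gene, had 37.9 and 46.9 FPKM at day 0, 29.3 and 32.1 FPKM at day 3 and 21.0 and 19.2 FPKM at day 6 in OCI-Ly7 cells. In TMD8 cells it had 64.8 and 60.5 FPKM at day 0, 41.3 and 42.0 FPKM at day 3 and 49.6 and 54.7 FPKM at day 6. FPKM, the unit of all levels here, are fragments per kilobase of transcript, scaled to the mapped fragments of the library; a guide acts on the gene, so the RNA level is an indirect check. The log2 change at day 6 against day 0 was -1.04 in OCI-Ly7 (SE 0.133, adjusted p = 0.0345) and -0.26 in TMD8 (SE 0.074, adjusted p = 0.0262). In TMD8 that change was 0.10 after median-ratio scaling. An estimated 13.9% and 14.9% of the OCI-Ly7 fragments at day 0, 19.1% to 27.4% at day 3 and 21.5% to 27.0% at day 6 fell in the row of the 45S precursor, which also spans the mature ribosomal RNAs. For TMD8 this share was 6.97% to 10.6% at day 0, 26.8% to 27.3% at day 3 and 23.5% to 27.1% at day 6. FPKM are shares of a library, so growth of this row would, with all else equal, lower the FPKM of every member. Results are therefore given for FPKM as deposited and after median-ratio scaling, which sets the typical gene to no change. The part of the 45S row in the changes was not tested further. In bulk RNA, fewer expressing cells and less RNA per cell cannot be told apart. T and NK cell markers summed to at most 3.00 FPKM in OCI-Ly7 and 0.915 FPKM in TMD8, and myeloid markers to at most 0.362 FPKM in OCI-Ly7 and 0.383 FPKM in TMD8. Stromal and epithelial markers summed to 11.1 to 13.0 FPKM in OCI-Ly7 and 0.831 to 1.59 FPKM in TMD8. B cell markers summed to 755 to 1250 FPKM in OCI-Ly7 and 472 to 654 FPKM in TMD8. The 5 germinal centre markers summed to 57.2 to 74.4 FPKM in OCI-Ly7 and 33.6 to 67.8 FPKM in TMD8. Of these, 3 were higher in OCI-Ly7: BCL6 had 41.9 to 60.2 FPKM there and 7.56 to 12.9 FPKM in TMD8, MYBL1 had 5.88 to 8.15 FPKM and 0.586 to 1.98 FPKM, and MME had 6.72 to 10.8 FPKM and at most 0.0226 FPKM. The other 2 went against the labels: SERPINA9 was listed at 0 in all OCI-Ly7 libraries and at 4.31 to 12.9 FPKM in TMD8, and LMO2 did not exceed 0.144 FPKM in OCI-Ly7, against 17.1 to 40 FPKM in TMD8. The markers of the activated type summed to 132 to 233 FPKM in OCI-Ly7 and 387 to 658 FPKM in TMD8. Among them IRF4, CCND2 and FUT8 were higher in all TMD8 libraries. BLNK overlapped, with 43.3 to 52.2 FPKM in OCI-Ly7 and 42.8 to 68.8 FPKM in TMD8. PIM1 went against the labels in most libraries, with 16.3 to 92.1 FPKM in OCI-Ly7 and 19.7 to 33.9 FPKM in TMD8. Exons of 22 of the 50 members overlap a gene on the other strand in GENCODE, and it is not stated whether the counting used strand, so their reads may include those of the partner.

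**Figure D1:**
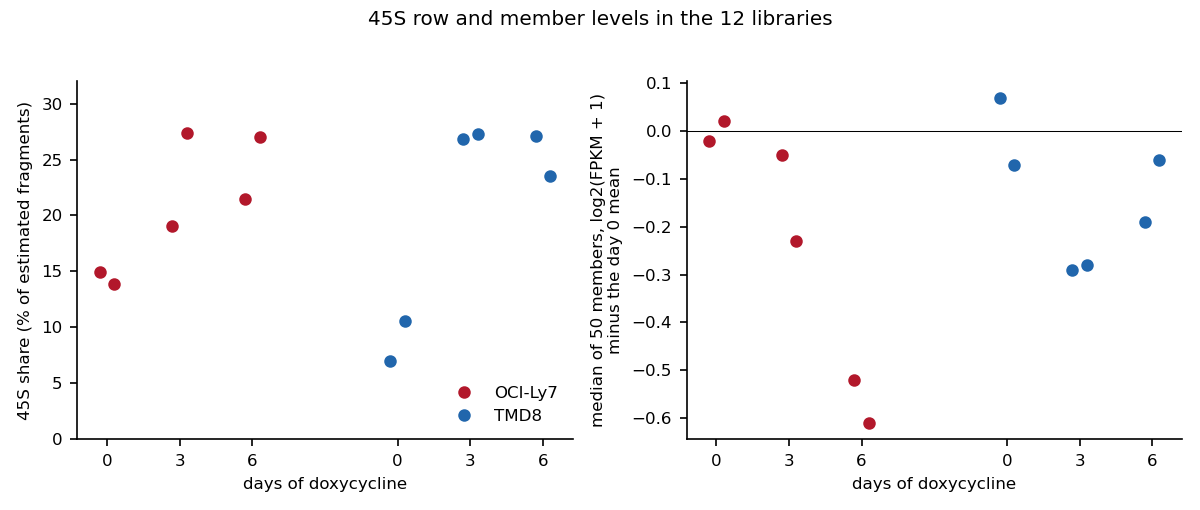
Left, estimated share of fragments in the 45S row (percent); right, median over the 50 members of log2(FPKM + 1) minus the day 0 mean of the line; both against days of doxycycline, with 1 point per library. The member median lay at -0.52 and -0.61 in OCI-Ly7 at day 6 and at -0.19 and -0.06 in TMD8 at day 6, while the 45S share was above its day 0 values in all later libraries of both lines.

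By day 6, ribosome biogenesis genes were lower in OCI-Ly7 cells. Of the 50 members 22 fell and none rose at an adjusted p under 0.05 (limma on log2(FPKM + 1), adjusted over 11016 genes), while 9.39% of all genes tested fell and 1.98% rose. The median change was -0.58 over the members and -0.13 over all genes. Both day 6 libraries lay below both day 0 libraries for 45 of the 50 members, against 48.6% of all genes. After median-ratio scaling 21 members fell and none rose, with 8.08% of all genes lower and 6.74% higher, and the medians were -0.44 for members and 0.01 for all genes. When FPKM were rescaled without the 45S row, 23 members fell, against 7.35% of all genes. Under all 3 scalings 17 members fell: DDX18, DDX21, DKC1, GNL3, MRTO4, NCL, NIP7, NOLC1, NOP14, NOP56, PES1, PNO1, POLR1C, RIOK2, TSR1, WDR12 and WDR43. The 22 calls need all 4 compared libraries, although the median of the members stayed between -0.61 and -0.52 when 1 library was left out. With no filter on low genes 2 members passed.

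In TMD8 cells at day 6 fewer of these genes fell than of all genes. As deposited, 10 of 50 members fell, where 51.7% of all genes did, and POLR1C and EBNA1BP2 rose, where 3.89% of all genes did; the median was -0.13 over the members and -0.31 over all genes. After median-ratio scaling 22 members rose and none fell, against 15.5% of all genes higher and 13.4% lower, with medians of 0.22 and 0. Rescaling without the 45S row gave 17 members higher and 1 lower, GNL3, against 10.6% of all genes higher and 17.9% lower. The sign in TMD8 depended on the scaling, with 37 members below 0 as deposited and 6 after median-ratio scaling; POLR1C and EBNA1BP2 rose under all 3 scalings. Without the first TMD8 day 0 library 1 member fell, and without the first day 6 library 3 did.

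**Figure D2:**
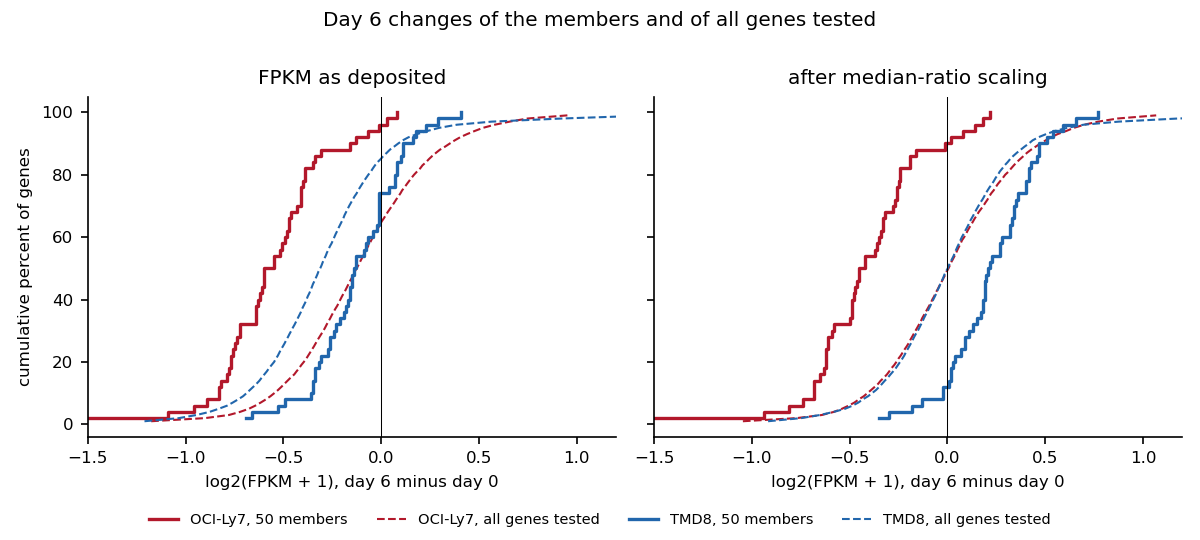
Cumulative percent of genes (vertical axis) by log2 change at day 6 against day 0 (horizontal axis), for FPKM as deposited and after median-ratio scaling; solid lines are the 50 members and dashed lines all genes tested in the line. The OCI-Ly7 members lie left of all genes in both panels, with a median of -0.58 as deposited and -0.44 after scaling. The TMD8 members lie right of all genes except in the upper tail, with medians of -0.13 and 0.22. Their highest changes were 0.41 and 0.77, below the 99th percentiles of all genes, 1.389 and 1.705.

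In OCI-Ly7, 3 of the 7 members of the RNA polymerase I group fell at day 6, where 9.39% of all genes did. They were UBTF, which bends and opens the ribosomal DNA, POLR1A, the largest subunit, and POLR1C, a subunit shared with RNA polymerase III. UBTF had 26.0 and 21.0 FPKM at day 0, 18.2 and 20.4 FPKM at day 3 and 14.1 and 13.0 FPKM at day 6 in OCI-Ly7. Its log2 change was -0.74 (SE 0.135, adjusted p = 0.0367, and 0.0561 after median-ratio scaling). POLR1A, at 4.91 and 5.23 FPKM at day 0, 4.92 and 4.51 FPKM at day 3 and 3.36 and 3.49 FPKM at day 6, changed by -0.46 in OCI-Ly7 (SE 0.0978, adjusted p = 0.0443, and 0.0523 after scaling). The day 6 libraries lay below both earlier days for both genes. POLR1B, the second largest subunit, had 3.88 and 4.44 FPKM at day 6 against 6.52 and 7.41 FPKM at day 0 in OCI-Ly7, without overlap, and missed the threshold at -0.63 (SE 0.151, adjusted p = 0.0529). POLR1E, a subunit that binds the initiation complex, and RRN3 each had a log2 change of -0.41, with adjusted p-values of 0.119 and 0.105. POLR1E had 31.2 and 35.1 FPKM at day 0, 32.2 and 25.3 FPKM at day 3 and 26.3 and 23.1 FPKM at day 6 in OCI-Ly7, and RRN3 had 12.7 and 13.6, then 14.0 and 11.6, then 10.7 and 8.76 FPKM. For both genes the day 6 libraries lay below those of day 0. TAF1D, an SL1 subunit, had 22.0 and 22.6 FPKM at day 6 against 23.2 and 21.8 FPKM at day 0, which overlap (-0.01, SE 0.136, adjusted p = 0.963).

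POLR1C was the only member of this group that rose in TMD8 as deposited (limma, adjusted p under 0.05). There it had 34.4 and 34.0 FPKM at day 0, 30.5 and 27.8 FPKM at day 3 and 43.8 and 48.0 FPKM at day 6, while in OCI-Ly7 it had 19.6 and 19.7, then 19.8 and 18.0, then 13.0 and 13.8 FPKM. The day 6 change was -0.52 in OCI-Ly7 (SE 0.0965, adjusted p = 0.0371) and 0.41 in TMD8 (SE 0.0775, adjusted p = 0.00735). The difference between the lines, -0.93 (SE 0.118, adjusted p = 0.00262), passed in each of 12 fits that left out 1 library. Genes that overlap it on the other strand include LRRC73, XPO5 and YIPF3. POLR1A and UBTF, in contrast, fell in TMD8 as deposited. POLR1A had 14.2 and 11.9 FPKM at day 0, 8.99 and 9.31 FPKM at day 3 and 6.48 and 9.13 FPKM at day 6 in TMD8 (-0.69, SE 0.159, adjusted p = 0.0141). UBTF had 38.2 and 26.5, then 28.0 and 30.1, then 19.8 and 23.7 FPKM there (-0.53, SE 0.174, adjusted p = 0.0409). After median-ratio scaling neither passed, at -0.35 and -0.18 with adjusted p-values of 0.0907 and 0.387, and the lines did not differ detectably for either gene (adjusted p = 0.413 for POLR1A and 0.552 for UBTF). POLR1B, POLR1E and RRN3 had log2 changes of -0.27, -0.26 and -0.24 in TMD8 as deposited and of 0.07, 0.09 and 0.11 after scaling, and none of these passed. POLR1B had 13.6 and 16.9 FPKM at day 6 against 19.6 and 17.4 FPKM at day 0 in TMD8, POLR1E had 38.9 and 46.8 against 54.1 and 48.9 FPKM, and RRN3 had 15.0 and 16.4 against 19.2 and 18.0 FPKM. TAF1D rose there after scaling (0.42, adjusted p = 0.00913).

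**Figure D3:**
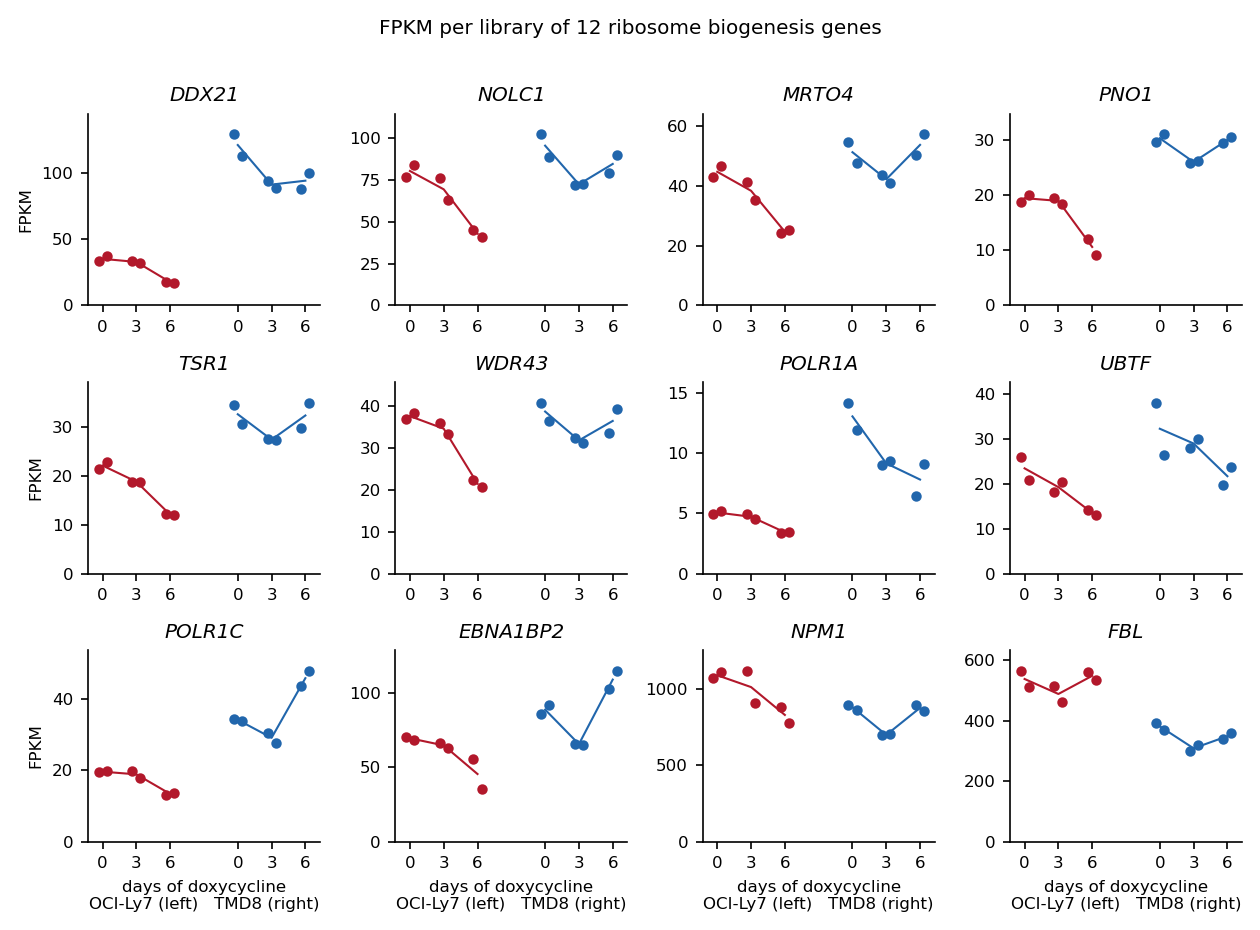
FPKM (vertical axis, from 0) in each library at days 0, 3 and 6 for 12 members, with OCI-Ly7 in red on the left and TMD8 in blue on the right of each panel; lines join the means of the 2 libraries. In OCI-Ly7 the day 6 points of DDX21, NOLC1, MRTO4, PNO1, TSR1, WDR43 and POLR1C lie below all earlier ones, whereas in TMD8 POLR1C and EBNA1BP2 are higher at day 6 than at day 0 and FBL is nearly level in OCI-Ly7.

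Among the abundant nucleolar proteins, DDX21 and NCL fell in OCI-Ly7, and NPM1 and LYAR did not pass. DDX21, an RNA helicase that acts in ribosomal RNA transcription and processing, had 33.2 and 37.1 FPKM at day 0, 33.8 and 31.8 FPKM at day 3 and 17.9 and 17.3 FPKM at day 6. With a log2 change of -0.96 (SE 0.101, adjusted p = 0.0345), it had the largest drop among the members that passed in this line. In TMD8 DDX21 had 129 and 113, then 93.7 and 88.6, then 88.2 and 100 FPKM, and fell by 0.35 on the log2 scale at day 6 (SE 0.0947, adjusted p = 0.022) as deposited, while its log2 change was 0.01 after median-ratio scaling. NCL (nucleolin), a histone chaperone and RNA binder, had 453 and 465 FPKM at day 0, 449 and 353 FPKM at day 3 and 284 and 254 FPKM at day 6 in OCI-Ly7 (-0.77, SE 0.137, adjusted p = 0.0357). In TMD8 it had 502 and 584 FPKM at day 6 against 768 and 617 FPKM at day 0, a change of -0.34 that missed the threshold (adjusted p = 0.0515). NPM1 (nucleophosmin), with the highest level of the members in OCI-Ly7, had 1070 and 1110, then 1120 and 905, then 881 and 779 FPKM there. Its day 6 libraries lay below all earlier ones, and its change of -0.39 did not pass (SE 0.127, adjusted p = 0.0926). In TMD8 NPM1 dipped at day 3, with 898 and 863 FPKM at day 0, 696 and 702 FPKM at day 3 and 897 and 856 FPKM at day 6; day 6 against day 3 gave 0.33 (SE 0.0556, adjusted p = 0.0302).

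Among the small nucleolar ribonucleoprotein genes NOP56, DKC1 and NOLC1 fell in OCI-Ly7. The others did not pass, and no test compared them with those that did. Of the 4 box C/D core proteins in OCI-Ly7 only the scaffold NOP56 fell, to 100 and 95.7 FPKM at day 6, against 154 and 148 FPKM at day 0 (-0.62, SE 0.0972, adjusted p = 0.0345). FBL (fibrillarin), the methyltransferase, did not pass in that line, and its days overlapped. It had 565 and 510 FPKM at day 0, 513 and 463 FPKM at day 3 and 562 and 534 FPKM at day 6 (0.03, SE 0.0992, adjusted p = 0.854). In TMD8 FBL had a log2 change of -0.13 as deposited (adjusted p = 0.137) and rose by 0.23 after median-ratio scaling (adjusted p = 0.0498). NOP58, the partner scaffold of NOP56, had 88.6 and 81.3 FPKM at day 6 against 89.4 and 88.7 FPKM at day 0 in OCI-Ly7. NHP2L1, which binds the kink-turn of these RNAs, had 36.9 and 35.5 FPKM at day 6 against 49.0 and 125 FPKM at day 0 in OCI-Ly7, and in TMD8 86.1 and 41.7 FPKM at day 6 against 96.6 and 93.8 FPKM. In each line 1 library stood apart from the rest, so its changes of -1.09 and -0.66 (adjusted p = 0.125 and 0.105) are uncertain.

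Of the 5 box H/ACA proteins DKC1 (dyskerin), the pseudouridine synthase, and NOLC1, a chaperone of both particle types, fell in OCI-Ly7. DKC1 had 46.3 and 46.0 FPKM at day 0, 44.3 and 39.1 FPKM at day 3 and 28.0 and 25.3 FPKM at day 6 (-0.77, SE 0.108, adjusted p = 0.0345). NOLC1 had 76.8 and 83.6, then 75.8 and 62.7, then 44.8 and 40.9 FPKM (-0.89, SE 0.127, adjusted p = 0.0345). NHP2, NOP10 and GAR1, the core proteins that sit with dyskerin, had log2 changes of -0.35, -0.40 and -0.39 and did not pass. DKC1 had 40.2 and 44.9 FPKM at day 6 against 50 and 45.6 FPKM at day 0 in TMD8. In that line none of the 5 passed as deposited, with changes from -0.17 for NOLC1 to 0.11 for NHP2, and NHP2 and NOP10 rose by 0.47 and 0.46 after median-ratio scaling (adjusted p = 0.0151 and 0.0229). The lines differed for 3 of them as deposited (DKC1, NOLC1 and NOP10) and for all 5 after scaling. Of all genes 6.3% and 19% changed more negatively in OCI-Ly7 under these scalings at an adjusted p under 0.05 (limma).

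Some small subunit factors and some late 40S factors changed differently between the lines, as did members of other groups. Of 8 early small subunit factors, 4 fell in OCI-Ly7, where 9.39% of all genes did: WDR43, NOP14, UTP20 and HEATR1. WDR43, which belongs to the complex that links transcription to processing, had 36.9 and 38.4 FPKM at day 0, 35.9 and 33.4 FPKM at day 3 and 22.3 and 20.7 FPKM at day 6 (-0.78, SE 0.097, adjusted p = 0.0345). In TMD8 it had 33.7 and 39.3 FPKM at day 6 against 40.9 and 36.6 FPKM at day 0, which overlap. NOP14 had 8.21 and 7.63 FPKM at day 6 against 14.0 and 14.2 FPKM at day 0 in OCI-Ly7 (-0.76, SE 0.149, adjusted p = 0.0401). UTP20, with 1.88 and 1.59 against 3.03 and 4.05 FPKM, and HEATR1, with 5.30 and 4.52 against 7.18 and 8.93 FPKM, passed as deposited (adjusted p = 0.041 and 0.0473) and not after median-ratio scaling (0.0519 and 0.0523). WDR75 passed only after scaling (-0.32, adjusted p = 0.0402). In TMD8, HEATR1, DDX10 and WDR75 fell as deposited by 0.35, 0.36 and 0.31 on the log2 scale, and after scaling UTP15, RRP9 and WDR43 rose by 0.40, 0.51 and 0.27.

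Of the 7 late 40S factors 4 fell in OCI-Ly7 (PNO1, TSR1, BYSL and RIOK2), where 9.39% of all genes did. In 5 of the 7 the change was more negative in OCI-Ly7 than in TMD8 at an adjusted p under 0.05 (limma), against 6.3% of all genes. PNO1, a partner of the nuclease NOB1, had 18.8 and 20.1 FPKM at day 0, 19.5 and 18.4 FPKM at day 3 and 12 and 9.20 FPKM at day 6 in OCI-Ly7 (-0.83, SE 0.139, adjusted p = 0.0347). In TMD8 it had 29.6 and 31.0, then 25.9 and 26.1, then 29.5 and 30.5 FPKM, so that the day 6 and day 0 values overlapped. TSR1, a GTPase-like factor that blocks early entry of initiation factors, had 21.3 and 22.9, then 18.8 and 18.8, then 12.2 and 11.9 FPKM in OCI-Ly7 (-0.82, SE 0.0904, adjusted p = 0.0345). In TMD8 TSR1 had 34.5 and 30.7 FPKM at day 0, 27.5 and 27.3 FPKM at day 3 and 29.7 and 35.0 FPKM at day 6. BYSL (bystin) had 7.93 and 6.54 FPKM at day 6 against 11.1 and 14.2 FPKM at day 0 in OCI-Ly7 (-0.72, adjusted p = 0.0412, and 0.0501 after scaling), against 28.5 and 30.7 FPKM at day 6 and 28.5 and 27.3 FPKM at day 0 in TMD8. RIOK2, an atypical kinase of the late particle, changed by -0.47 (adjusted p = 0.0416). LTV1, NOB1 and RRP12 had log2 changes of -0.60, -0.49 and -0.55 in OCI-Ly7 and did not pass as deposited; after scaling LTV1 and NOB1 did (adjusted p = 0.0443 and 0.0493). In TMD8 after scaling BYSL, TSR1, LTV1, RIOK2 and PNO1 rose by 0.33 to 0.54.

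Large subunit factors numbered 15, of which MRTO4, NIP7, GNL3, DDX18, WDR12 and PES1 fell in OCI-Ly7, where 9.39% of all genes did. MRTO4, which holds the place of the ribosomal stalk on the maturing particle, had 42.8 and 46.6 FPKM at day 0, 41.4 and 35.3 FPKM at day 3 and 24.2 and 25.1 FPKM at day 6 (-0.83, SE 0.114, adjusted p = 0.0345). In TMD8 it had 54.7 and 47.8, then 43.5 and 40.9, then 50.2 and 57.2 FPKM, lowest at day 3, with day 6 overlapping day 0. NIP7, a late processing factor, had 23.2 and 25.2, then 24.0 and 20.0, then 12.9 and 14.2 FPKM in OCI-Ly7 (-0.79, SE 0.125, adjusted p = 0.0345). GNL3 (nucleostemin), a GTPase of proliferating cells, fell in both lines. It had 49.5 and 46.2 FPKM at day 6 against 72.5 and 78.0 FPKM at day 0 in OCI-Ly7 (-0.64, SE 0.106, adjusted p = 0.0347). In TMD8 it had 75.6 and 81.7 FPKM at day 6 against 113 and 109 FPKM at day 0 (-0.49, SE 0.0661, adjusted p = 0.00328); after median-ratio scaling this was -0.13 and did not pass (adjusted p = 0.0989). DDX18, a helicase, changed by -0.64 in OCI-Ly7 (adjusted p = 0.0362) and by -0.34 in TMD8 (adjusted p = 0.0302, and 0.02 on the log2 scale after median-ratio scaling).

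The PES1, BOP1 and WDR12 proteins form a single complex. In OCI-Ly7 the transcripts of PES1 and WDR12 fell, that of BOP1 was too variable to place, and no test compared the genes. PES1 had 22.4 and 21.8 FPKM at day 6 against 32.6 and 35.4 FPKM at day 0 (-0.60, SE 0.121, adjusted p = 0.041), and WDR12 had 14.2 and 13.1 against 20.1 and 22.4 FPKM (-0.60, SE 0.102, adjusted p = 0.0347). BOP1 ranged from 7.68 to 16.8 FPKM over the 6 OCI-Ly7 libraries without order by day (0.08, SE 0.299, adjusted p = 0.874). EBNA1BP2, which works in early large subunit assembly, had 70.5 and 68.6, then 66.3 and 63.2, then 55.8 and 35.2 FPKM in OCI-Ly7. Its day 6 libraries were both lower but far apart, and its change of -0.64 did not pass (SE 0.212, adjusted p = 0.0988). In TMD8 EBNA1BP2 had 85.6 and 92.0 FPKM at day 0, 65.9 and 65.3 FPKM at day 3 and 103 and 115 FPKM at day 6; it rose by 0.29 against day 0 (SE 0.0743, adjusted p = 0.0181). PPAN was listed at 25.6 FPKM in the first OCI-Ly7 day 0 library and at 0 in the other 5. In those 5 the read-through row PPAN-P2RY11 held 7.79 to 13.0 FPKM. PPAN passed the filter in OCI-Ly7 through that first library alone, and no change is read from it. It was nevertheless kept in the counts and medians of the 50 members, of the members without an E-box and of the small nucleolar RNA hosts. The remaining large subunit members NOP2, NOP16, WDR74, RRP1B, RRS1 and FTSJ3 had log2 changes of -0.51 to -0.13 in OCI-Ly7 and did not pass as deposited. NOP16 did after scaling (-0.36, adjusted p = 0.0484). In TMD8 after scaling 8 of the 15 large subunit factors rose, against 15.5% of all genes, from 0.22 for NIP7 to 0.66 for EBNA1BP2.

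**Figure D4:**
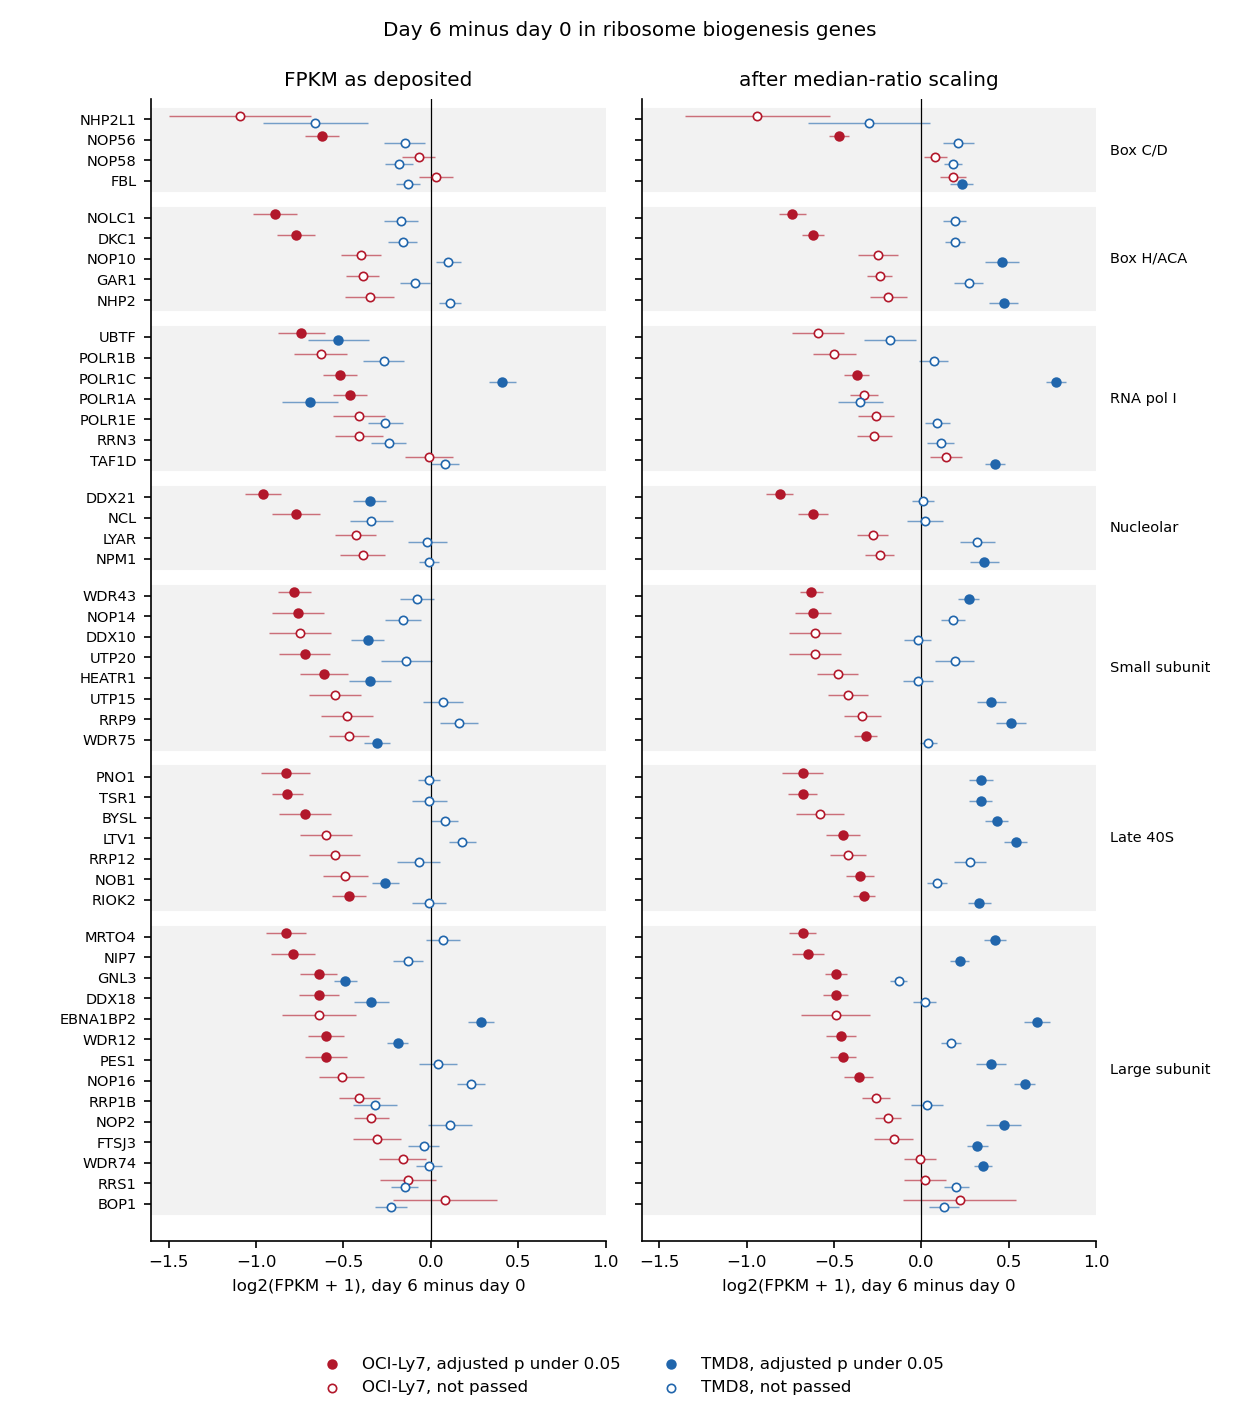
Change in log2(FPKM + 1) at day 6 against day 0 for each member, grouped by role, for FPKM as deposited and after median-ratio scaling; red points are OCI-Ly7, blue points TMD8, bars are standard errors (2 libraries per day) and filled points have an adjusted p under 0.05. PPAN is not drawn. Filled red points lie left of 0 in both panels, at 22 and 21 members. Filled blue points lie left of 0 at 10 members and right of it at 2 as deposited. After scaling they lie right of 0 at 22 members, of which 2 were filled there before.

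Day 3 differed from day 6. In OCI-Ly7 no member passed at day 3 against day 0 in limma, where 0.0726% of all genes fell and 0.0726% rose; 0 members fell at an unadjusted p under 0.05, against 671 of 11016 genes, and their median of -0.14 was close to that of all genes, -0.12. After median-ratio scaling no member passed either, and the medians were -0.01 and -0.01. Between day 3 and day 6 in OCI-Ly7 no member passed as deposited, with 0.118% of all genes lower and 0.0999% higher, although 34 fell at an unadjusted p under 0.05, as did 1560 of 11016 genes, and both day 6 libraries lay below both day 3 libraries for 40 members, against 30.5% of all genes. The 2 day 3 libraries differed in the 45S share, 19.1% and 27.4%, and the part of this in the spread was not tested. After median-ratio scaling 20 members fell between day 3 and day 6, against 4.55% of all genes, among them DDX21 (-0.84, SE 0.0772, adjusted p = 0.0332), PNO1 (-0.77, SE 0.117, adjusted p = 0.0371) and NOLC1 (-0.65, SE 0.0768, adjusted p = 0.0332).

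In TMD8 the members first moved with the transcriptome and then 6 of them rose. At day 3 against day 0, 20 of 50 members fell as deposited, a share near the 41.5% of all genes that fell, and none rose, against 1.5% of all genes; the medians were -0.28 and -0.27. The largest of these changes were those of GNL3 (-0.49), NOP56 (-0.44), EBNA1BP2 (-0.43) and NCL (-0.42), with adjusted p-values of 0.0212, 0.0342, 0.0212 and 0.0394. None passed after median-ratio scaling, 0 passed when any 1 of the 4 compared libraries was left out, and 33 passed without either day 6 library. At day 6 against day 3, EBNA1BP2, NOP10, NOP16, NPM1, POLR1C and RRP9 rose, and no member fell, against 3.38% of all genes higher and 4.47% lower; these 6 rose under all 3 scalings. EBNA1BP2 gave 0.73 (SE 0.0743, adjusted p = 0.0138) and POLR1C 0.64 (SE 0.0775, adjusted p = 0.0172). RRP9, a U3 particle protein, had 49.2 and 54.2 FPKM at day 6 against 35.1 and 37.5 FPKM at day 3 (0.50, SE 0.108, adjusted p = 0.0478), and NOP10 had 157 and 155 against 108 and 120 FPKM (0.45, SE 0.0713, adjusted p = 0.0259). Both day 6 libraries lay above both day 3 libraries for each of these genes. After scaling 11 members rose between day 3 and day 6, against 6.59% of all genes. Leaving out either day 3 library left 0 of the 6, and the count was 2 without either day 0 library, 3 without the first day 6 library and 2 without the second.

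The lines were then compared directly, as the day 6 change in OCI-Ly7 minus that in TMD8. As deposited, 19 of 50 members changed more negatively in OCI-Ly7 and none more positively at an adjusted p under 0.05 (limma). Of the 9688 genes tested, 6.3% were lower and 18.4% higher at this threshold, which also holds for the counts below. The medians were -0.44 over the members and 0.16 over all genes. After median-ratio scaling 38 members were lower, against 19% of all genes, and none higher, against 14.1%, and without the 45S row 34 were, against 13.9%. All 19 passed under each of these 3 scalings. They included 5 of 7 late 40S factors, 3 of 5 box H/ACA proteins, 3 of 8 small subunit factors, 6 of 15 large subunit factors, POLR1C and DDX21, and none of the 4 box C/D proteins. After POLR1C and EBNA1BP2 (both -0.93), the largest differences were those of MRTO4 (-0.90, SE 0.152, adjusted p = 0.00616), PNO1 (-0.82, SE 0.154, adjusted p = 0.00841) and TSR1 (-0.81, SE 0.134, adjusted p = 0.00586). In every fit that left out 1 library 7 of the 19 passed: BYSL, MRTO4, NOP16, PNO1, POLR1C, TSR1 and WDR43. The count was 7 without the second TMD8 day 0 library 9 without the second OCI-Ly7 day 0 library and 12 without the second TMD8 day 6 library. At day 3 no member differed between the lines, in limma with 0.0619% of all genes lower and 0.0413% higher; 0 members were lower and 1 was higher at an unadjusted p under 0.05, against 107 and 919 of 9688 genes.

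**Figure D5:**
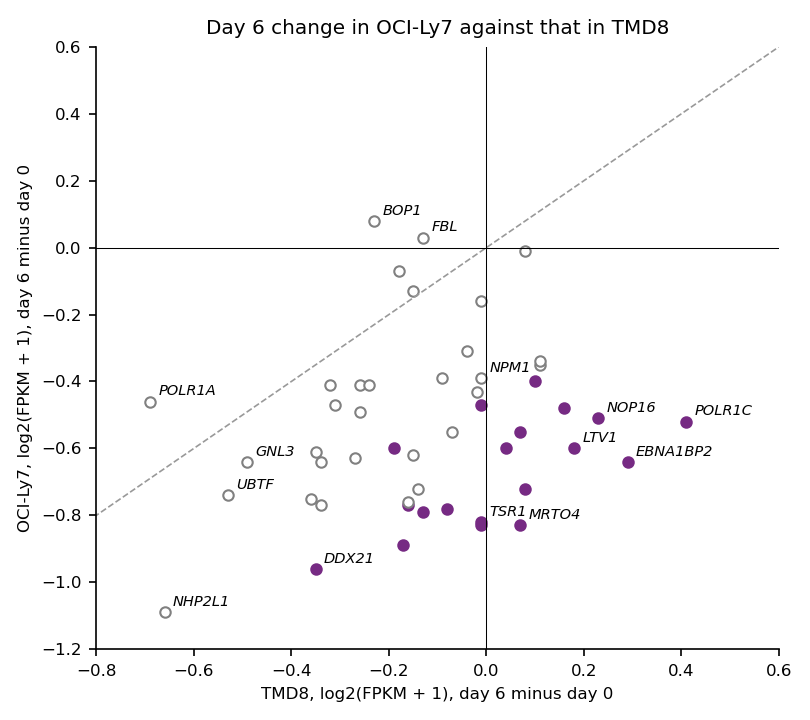
Change in log2(FPKM + 1) at day 6 against day 0 in OCI-Ly7 (vertical axis) and in TMD8 (horizontal axis) for each member except PPAN; filled points are the 19 whose changes differed between the lines at an adjusted p under 0.05, and the dashed line marks equal change. The filled points lie below the dashed line, with POLR1C at -0.52 in OCI-Ly7 and 0.41 in TMD8 and EBNA1BP2 at -0.64 and 0.29.

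Of the 13 members with an E-box in their promoter window 7 fell in OCI-Ly7, against 13 of the 28 members whose window had none, with median changes of -0.64 and -0.54; 9.39% of all genes fell. In TMD8 the medians were 0.07 with and -0.16 without an E-box as deposited, and after median-ratio scaling 11 of 13 rose against 11 of 28, and 15.5% of all genes, with medians of 0.42 and 0.20. These are counts without a test. MYC itself had 117 and 115 FPKM at day 0, 107 and 89.6 FPKM at day 3 and 72.1 and 69.8 FPKM at day 6 in OCI-Ly7 (-0.70, SE 0.112, adjusted p = 0.0345). In TMD8 it had 88.8 and 82.8, then 62.1 and 63.2, then 41.3 and 53.8 FPKM (-0.85, SE 0.123, adjusted p = 0.00383). MYC thus fell in both lines, also after median-ratio scaling (-0.55 and -0.49, adjusted p = 0.0233 and 0.0193), and the lines did not differ detectably in it (0.15, SE 0.175, adjusted p = 0.56); its part in the members' changes was not tested. In the annotation 10 members host small nucleolar RNAs, among them NOP56, DKC1, NCL and GNL3. Of these 10, 7 fell in OCI-Ly7, against 15 of the other 40 and 9.39% of all genes. In TMD8, 1 of the 10 fell and 1 rose as deposited, against 9 and 1 of the other 40. Of all genes 51.7% fell and 3.89% rose there.

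A wider list of 135 other ribosome biogenesis genes was counted in the same way. In OCI-Ly7 at day 6, 50 of the 133 tested fell and 1 rose, where 9.39% of all genes fell and 1.98% rose, with a median of -0.39. In TMD8 37 of 131 fell and 7 rose, where 51.7% of all genes fell and 3.89% rose, with a median of -0.15; fewer thus fell than of all genes. After median-ratio scaling 47 fell and 1 rose in OCI-Ly7, against 8.08% and 6.74% of all genes, and 49 rose and none fell in TMD8, against 15.5% and 13.4%. The difference between the lines passed as negative for 31 and as positive for 4 of 131 as deposited, against 6.3% and 18.4% of all genes. Within RNA polymerase I, 2 small subunits moved apart in OCI-Ly7. CD3EAP fell to 2.29 and 2.27 FPKM at day 6, against 8.15 and 7.81 FPKM at day 0 (-1.45, SE 0.221, adjusted p = 0.0345). ZNRD1 rose to 7.19 and 6.16 FPKM at day 6, against 2.88 and 3.07 FPKM at day 0 (0.95, SE 0.108, adjusted p = 0.0345), and had 7.50 and 7.98 FPKM at day 3. CD3EAP overlaps ERCC1 on the other strand and ZNRD1 has an antisense neighbour, so both levels are uncertain. In TMD8 CD3EAP had 5.37 and 7.16 FPKM at day 6 against 7.68 and 6.35 FPKM at day 0, which overlap, and the lines differed (-1.31, SE 0.288, adjusted p = 0.0143). TAF1B, an SL1 subunit, fell in both lines as deposited, by 0.64 in OCI-Ly7 and 0.49 in TMD8 on the log2 scale, and after median-ratio scaling in OCI-Ly7 alone (-0.50 against -0.17, adjusted p = 0.0284 and 0.213); the difference between the lines did not pass (adjusted p = 0.46).

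The same all-gene shares for FPKM as deposited apply to the counts of each wider list. Of 43 further small subunit factors 19 fell and none rose in OCI-Ly7, led by RRP36 (-0.96), the methyltransferase EMG1 (-0.80) and DDX47 (-0.78), against 13 lower and 2 higher in TMD8, led by FCF1 (-0.46), NOC4L (-0.43) and IMP3 (-0.41), where 51.7% of all TMD8 genes fell and 3.89% rose. RRP36 had 5.48 and 3.94 FPKM at day 6 against 9.77 and 10.2 FPKM at day 0 in OCI-Ly7, and 50.2 and 55.9 against 54.3 and 54.5 FPKM in TMD8; the lines differed by -0.92 (SE 0.168, adjusted p = 0.00761). Of 49 further large subunit factors tested in OCI-Ly7, 17 fell and none rose, with PAK1IP1 at -0.83, RSL1D1 at -0.82 and SDAD1 at -0.77; in TMD8, 12 of 48 fell and 2 rose, with GLTSCR2 at -0.53, URB1 at -0.51 and DDX24 at -0.49. Of 11 other factors of the small nucleolar ribonucleoproteins, 4 fell in each line and none rose, where 9.39% of all genes fell in OCI-Ly7 and 51.7% in TMD8. They included TGS1, which forms the trimethyl cap of small nuclear RNAs, at -0.71 in OCI-Ly7 and -0.53 in TMD8. Among 16 exosome and ribosomal RNA trimming genes, 7 fell in OCI-Ly7, led by ISG20L2 (-0.91), C1D (-0.89) and the exonuclease XRN2 (-0.78), and 5 fell and 2 rose in TMD8.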

How the data were processed

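The labels give RNeasy Plus columns and a TruSeq RNA kit for the libraries. The submitters' processing notes list HISAT, StringTie and the hg19 build, without versions. The values are FPKM deposited by the authors per library, in 1 table for each line; read depth is unknown, so no counting interval is given. Summed FPKM ranged from 397477 to 467844 over the libraries. One treatment note among the labels mentions days that differ from those in the titles, characteristics and design (0, 3 and 6), which were followed.

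Within a line, days were compared by limma 3.58.1 (R 4.3.3) using log2(FPKM + 1), which understates the changes of low genes. Genes needed a mean of at least 1 FPKM over the 6 libraries of the line, with a mean-dependent trend, 3 residual degrees of freedom and Benjamini-Hochberg adjustment over all genes tested at 0.05. All 50 members passed this filter. The difference between lines came from 1 fit over the 12 libraries with 6 residual degrees of freedom. For median-ratio scaling, a library's factor was its median ratio, over genes above 0 in all 6 libraries of the line, to their geometric mean. The share of the 45S row was estimated from its FPKM and a RefSeq length of 13357 nt. The alternatives were equal sums per library, a pseudocount of 0.1, no filter, a mean of at least 5 FPKM, the replicate number as a block, leaving out each library, and, chosen after seeing the data, rescaling without the 45S row. The procedure was also run on simulated data with independent noise for each gene and no shift of whole libraries. That run therefore does not bear on such shifts. The members, the lists and the tests were chosen with earlier results of these data known. Values per library are given for NPM1, NCL, FBL, DKC1, POLR1A, POLR1B, POLR1E, UBTF and RRN3, for up to 8 members with the largest changes at day 6 per line among those past the threshold without overlap (4 for other comparisons), and for members singled out after their values were seen. Up to 3 genes with the largest changes are named from each wider list.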

Additional observations from a re-analysis of the deposited data

Results flagged for a closer look

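The change at day 6 against day 0 differed between OCI-Ly7 and TMD8 for 19 members, each by the test of the difference in the fit over 12 libraries (limma, adjusted over 9688 genes). The log2 difference, OCI-Ly7 minus TMD8, was -0.93 for EBNA1BP2, -0.93 for POLR1C, -0.90 for MRTO4, -0.82 for PNO1, -0.81 for TSR1, -0.80 for BYSL, -0.78 for LTV1, -0.74 for NOP16, -0.72 for NOLC1 and -0.69 for WDR43. It was -0.67 for NIP7, -0.64 for RRP9, -0.64 for PES1, -0.62 for UTP15, -0.61 for DKC1, -0.60 for DDX21, -0.50 for NOP10, -0.47 for RIOK2 and -0.41 for WDR12. The adjusted p-values ran from 0.00262 for POLR1C to 0.0497 for UTP15. PRMT5 itself differed in the same direction, by -0.77 (SE 0.154, adjusted p = 0.01), and the 45S row by -0.81 (SE 0.309, adjusted p = 0.0869). Their part in the members' differences was not tested.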

How the results depend on the processing

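With 2 libraries per group, 22 calls in OCI-Ly7 rest on each compared library, and FPKM as shares shift with the 45S row; none of the named OCI-Ly7 day 6 calls changed sign under any alternative. Leaving out 1 library moved the count of lower members at day 6 between 0 and 25 in OCI-Ly7, between 1 and 14 in TMD8 (higher 1 to 3) and between 7 and 21 for the difference of the lines. It moved that count at day 3 between 0 and 1 in OCI-Ly7, 0 and 33 in TMD8 and 0 and 1 for the difference, and in TMD8 day 6 against day 3 between 0 and 1 (higher 0 to 3). The medians moved between -0.50 and -0.29 for OCI-Ly7 day 6 against day 3, -0.36 and -0.21 for TMD8 day 3, -0.20 and -0.05 for TMD8 day 6, 0.09 and 0.21 for TMD8 day 6 against day 3, and 0.04 and 0.24 for the day 3 difference. FBL in OCI-Ly7 moved between -0.04 and 0.10 and NPM1 in TMD8 at day 6 between -0.04 and 0.03.

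Without the filter 2 members fell in OCI-Ly7 at day 6, 9 in TMD8 at day 3, and 3 rose in TMD8 between days 3 and 6. With a mean of at least 5 FPKM 1 fell in OCI-Ly7 between days 3 and 6. The numbers did not pair the libraries: the differences of the 2 libraries of a day correlated across genes between days at -0.08 to 0.13 in OCI-Ly7 and -0.15 to 0.08 in TMD8. With the replicate block 5 members fell in TMD8 at day 6, 0 at day 3, and 1 rose between days 3 and 6. It kept 15 of the 22 calls in OCI-Ly7 at day 6 and 16 of the 19 differences between the lines.

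With equal sums the medians were -0.48 (OCI-Ly7 day 6), -0.01 (OCI-Ly7 day 3), -0.06 (TMD8 day 6), -0.08 (TMD8 day 3) and 0.04 (TMD8 day 6 against day 3); 15 members fell in OCI-Ly7 between days 3 and 6, 2 fell and 5 rose in TMD8 at day 6, 0 fell at day 3, 3 rose between days 3 and 6, and NPM1 in TMD8 was at 0.07. After median-ratio scaling the medians were -0.44 and -0.01 in OCI-Ly7 at days 6 and 3, 0.22 and 0.01 in TMD8, and -0.65 and -0.03 for the difference of the lines. Lower members then numbered 20 in OCI-Ly7 between days 3 and 6, 0 and 0 in TMD8 at days 6 and 3, and 38 for the difference, and 22 and 11 rose in TMD8 at day 6 against days 0 and 3. Without the 45S row these medians were -0.42, 0.02, 0.14, 0.03, -0.56 and -0.01, with 21 members lower in OCI-Ly7 between days 3 and 6, 1 and 0 lower in TMD8 at days 6 and 3, 17 higher there at day 6, and 34 lower for the difference.

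Among single genes, signs turned in TMD8 under these 2 scalings, which by construction raise all genes there, and for NPM1 and FBL as given above. At day 6 median-ratio scaling gave 0.23 for FBL, 0.19 for DKC1, 0.07 for POLR1B, 0.09 for POLR1E, 0.11 for RRN3, 0.36 for NPM1, 0.02 for NCL, 0.01 for DDX21, 0.04 for WDR75, 0.09 for NOB1, 0.17 for WDR12 and 0.02 for DDX18. Without the 45S row it was 0.16 for FBL, 0.12 for DKC1, 0 for POLR1B, 0.02 for POLR1E, 0.04 for RRN3, 0.28 for NPM1, 0.02 for NOB1 and 0.09 for WDR12. At day 3 median-ratio scaling gave 0 for FBL, 0.08 for PNO1, 0.05 for WDR12 and 0.06 for WDR74, and without the 45S row it was 0.02 for FBL, 0.01 for NOP58, 0 for DKC1, 0.10 for PNO1, 0.07 for WDR12 and 0.08 for WDR74.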
